A study of Mus musculus with 70 samples.

Results

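Limb (LM) and craniofacial prominence (CF) of C57BL/6N mouse embryos at embryonic day 12.5 (E12.5) were compared by the long-range contacts of their promoters, with 2 replicate libraries of each tissue, 4 of the 14 libraries of that stage and of the 24 libraries of the kind in the series. The libraries were made from unmanipulated, formaldehyde-fixed tissue by PLAC-seq, in which chromatin contacts are captured by ligation and enriched with an antibody against H3K4me3, the histone mark of active and poised promoters. Interactions had been called by MAPS, a caller that sets the reads joining a pair of 10-kb bins against the number expected for that pair. The question was which genes make more contacts in which tissue. LM and CF are whole tissues that hold mesenchyme, epithelium, vessels, blood and nerve, so that fewer cells of a type and fewer contacts per cell cannot be told apart.

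Limb buds and facial prominences are built from a similar loose mesenchyme. That of the limb derives from lateral plate mesoderm and is patterned along its length by posterior Hox genes, whereas most facial mesenchyme derives from cranial neural crest, is largely free of Hox expression and is patterned by Dlx, Alx, Msx, Pax and Lhx factors. Many of these developmental genes lie in gene-poor regions and are switched on by enhancers far away along the chromosome, which reach the promoter by chromatin looping, often between sites bound by the insulator protein CTCF.

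The number of interactions called was 12461 and 20775 in LM replicates 1 and 2 and 18015 and 18979 in CF replicates 1 and 2. The LM libraries thus lay on both sides of the CF libraries, and LM replicate 1 was the smallest of the 4. In the lists called by the authors after pooling the replicates and bringing all tissues to the same number of usable reads, LM had 56013 and CF 61119 interactions. A gene was given every interaction with an end in a 10-kb bin that holds one of its transcription start sites (TSSs), and the number was scaled to the median total of the 14 libraries of the stage, 19877. Of 20807 protein-coding genes on autosomes, 7680 had an interaction in at least 1 of the 4 libraries and 4315 had a mean scaled number of at least 1, and these were tested. A bin pair without an H3K4me3 peak at either end in a tissue had not been tested by MAPS, so a number of 0 can also mean that a promoter was not marked there, and the part of the mark itself was not tested.

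LM promoters of Hoxa10 and Hoxa11, Trps1, Sall1, Hand2 and Tshz1 made more contacts than their CF counterparts, and CF promoters of Six3, Sox2, Dlx1, Dlx2, Dlx6, Pax1, Foxf1, Lhx8, Irx3, Irx5, Meis1 and Meis2 made more than those of LM. With limma on log2(scaled number + 1) and the spread taken from all 14 libraries, 260 genes (6.03% of those tested) had more interactions in LM and 401 (9.29%) more in CF at an adjusted p under 0.05. These 661 genes (15.3%) held 628 distinct sets of interactions, since neighbouring genes can share a TSS bin. In all 661 the 2 LM values and the 2 CF values did not overlap, a pattern that 25.9% of tested genes showed with LM above and 29.7% with CF above. The pooled lists pointed the same way for 226 of the 260 and 362 of the 401 genes. Of the genes named first, Hand2, Tshz1, Dlx2 and Dlx6 were not called in every limma fit that left out 1 library.

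The number of calls depended on where the spread came from. A quasi-likelihood test in edgeR took the unscaled numbers of the same 14 libraries, with the library totals as its library sizes. It called 117 genes higher in LM (2.71%) and 146 higher in CF (3.38%), and 85 and 142 genes were called by both tests. Limma on the 4 LM and CF libraries alone called 0 genes, with 1142 genes at an unadjusted p under 0.05 and 0.0859 as the smallest adjusted p. The spread of a gene with few interactions in the other 5 tissues is small there, which can make its limma p too small. Of the 260 genes, 24 had 0 interactions in all 10 libraries of the other tissues, against 4 of the 401 higher in CF. For this reason the edgeR adjusted p stands beside the limma value of most genes below. Without LM replicate 1 limma called 224 genes, without CF replicate 1 it called 282 and without CF replicate 2 it called 375. Without scaling to the library totals the split was 123 higher in LM and 325 higher in CF, with the median of all genes shifted to -0.13 on the log2 scale from -0.02.

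**Figure D1:**
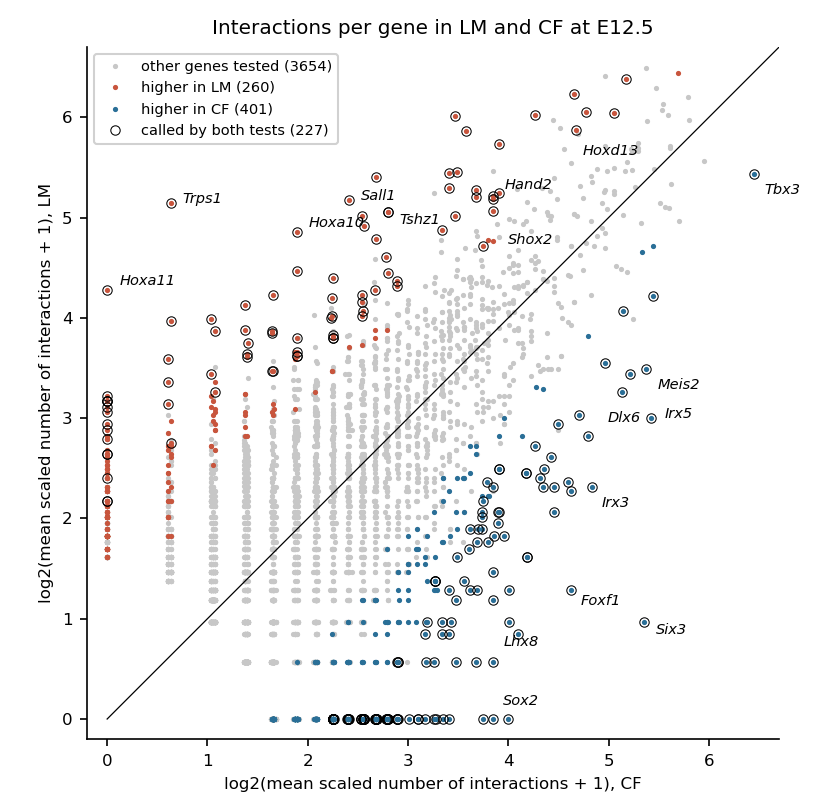
Interactions per gene in CF (x axis) and LM (y axis), each the mean scaled number of 2 libraries plus 1 on a log2 scale. Each point is 1 of the 4315 genes tested, coloured where limma called a difference (260 higher in LM, 401 higher in CF), ringed where edgeR over the 14 libraries also called it (227 genes). Hoxd13 and Shox2 are labelled although limma did not call them.

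The 15 genes with the largest difference towards LM were led by Trps1, a GATA-type zinc finger repressor of skeletal and hair development. Its 3 TSS bins on chromosome 15 (mm10, 50820001 to 50900000) had 30.3 and 38.3 interactions after scaling in LM replicates 1 and 2, and 1.103 and 0 in the CF replicates. In unscaled numbers these were 19 and 40 against 1 and 0. The difference was 4.60 ± 0.62 (SE) on the log2 scale (adjusted p = 0.000746 with limma and 1.13e-05 with edgeR). Both LM libraries stood far above both CF libraries, and the other 5 tissues had a mean of at most 1.26. The contacts of LM lay almost wholly on the side of higher coordinates, upstream of this minus-strand gene: 19 of 19 in replicate 1 and 37 of 40 in replicate 2. Their median distance was 910 and 785 kb. Among the farthest were the TSS bins of Eif3h, a translation initiation factor gene at 910 kb with observed/expected ratios of 7.12 and 7.57 in LM, and Utp23, a ribosome biogenesis gene at 990 kb with 4.95 and 4.49. Neither pair was called in a CF library. The pooled CF list, which is called from more reads, held 28 interactions of Trps1 against 69 in pooled LM, so the gene was not without contacts in CF.

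Hoxa11, which patterns the forearm and lower leg, and Hoxa10, which patterns the upper limb segment, followed. Hoxa11 had scaled numbers of 22.3 and 14.4 in LM and 0 in both CF libraries (14 and 15 calls unscaled). The difference of 4.24 ± 0.51 depends on the pseudocount of 1, since the CF libraries are at 0 (adjusted p = 0.000385, edgeR 0.000119). Hoxa10 had 31.9 and 23.9 in LM and 3.31 and 2.09 in CF, a difference of 2.97 ± 0.41 (adjusted p = 0.000756, edgeR 6.4e-05). The TSS bins of Hoxa10 include that of Hoxa11, so these 2 values are not independent. Both CF libraries lay below both LM libraries for each gene. Contacts of Hoxa11 in LM reached mainly towards higher coordinates, 12 of 14 in replicate 1 and 14 of 15 in replicate 2, at median distances of 615 and 620 kb, beyond the 5′ end of the cluster. The highest ratios were at 590 kb (5.55 and 7.01) and 600 kb (6.21 and 5.45), in bins that hold no coding TSS, and 7 pairs were called in both LM replicates and the pooled LM list and in no CF list.

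The promoter of Hoxa11 is shown because it is the anchor of these contacts and had 0 calls in both CF libraries. Promoters rich in CG dinucleotides are the usual sites of H3K4me3. The RefSeq sequence of 250 bases before to 50 bases after the start (GRCm38.p6, chr6:52245761-52246060, minus strand) has its 15 CG dinucleotides in capitals, which read the same on both strands, and 34.7% of all promoters in the same table hold at least as many.
Hoxa11 promoter: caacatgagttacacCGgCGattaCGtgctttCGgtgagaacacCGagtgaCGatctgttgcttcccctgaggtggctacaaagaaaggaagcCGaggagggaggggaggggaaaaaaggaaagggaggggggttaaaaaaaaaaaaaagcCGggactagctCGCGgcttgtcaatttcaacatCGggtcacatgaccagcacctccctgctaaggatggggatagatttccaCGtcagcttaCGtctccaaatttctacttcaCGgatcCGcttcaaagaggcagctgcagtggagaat

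Other posterior Hox genes stood less far apart. Hoxa9, whose bins overlap those of Hoxa10, had 27.1 and 25.8 in LM and 14.3 and 11.5 in CF (0.99 ± 0.31, adjusted p = 0.0443, edgeR 0.0602). Hoxa13, the digit gene of the cluster, had 16.0 and 19.1 against 7.72 and 10.5 (adjusted p = 0.295). Hoxd13, its digit counterpart in the HoxD cluster, had 54.2 and 37.3 in LM and 22.1 and 25.1 in CF, which did not overlap but missed the limma threshold (0.91 ± 0.32, adjusted p = 0.0728) while passing that of edgeR (0.032). All but 2 of its contacts in the 4 libraries lay on the side of lower coordinates, 34 and 39 in LM and 19 and 23 in CF, in the gene-poor region beyond the 5′ end of the cluster. The strongest of them, at 600 kb, had like ratios in both tissues, 11.5 and 13.9 in LM and 13.6 and 10.02 in CF. Contacts at 390 and 460 kb were called in both LM replicates and in neither CF replicate. Lnpk, an endoplasmic reticulum protein gene beside the HoxD cluster, had 6.38 and 9.57 in LM and 0 in both CF libraries (adjusted p = 0.0141, edgeR 0.0111).

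Transcription factors of limb mesenchyme with more contacts in LM were Sall1, Tshz1, Hand2, Lhx9 and Meox2. Sall1, a zinc finger factor of limb and kidney, had 36.7 and 33.5 in LM and 5.52 and 3.14 in CF (2.79 ± 0.31, adjusted p = 0.000228, edgeR 8.44e-05). The 4 neural tissues had means between 19.3 and 39.3 and liver had 0. Tshz1, a zinc finger factor that shares its contacts with Zadh2, had 27.1 and 37.3 against 7.72 and 4.19 (2.29 ± 0.65, adjusted p = 0.0323, edgeR 0.000383). Hand2, which sets up posterior identity in the limb bud and also acts in the lower jaw and heart, had 39.9 and 30.6 against 11.03 and 15.7 (1.34 ± 0.38, adjusted p = 0.0323, edgeR 0.00335). Its strongest contact, 700 kb towards lower coordinates, was present in both tissues with ratios of 8.43 and 9.23 in LM and 12.3 and 8.87 in CF. What LM had in addition were weaker contacts over a wide stretch, of which 5 pairs between 310 and 800 kb were found in all LM lists and no CF replicate or pooled list. The bin at 770 kb, called in both LM replicates and in neither CF replicate, holds TSSs of Cep44 and of Fbxo8, an F-box protein gene that was itself among the 15 leading genes. Fbxo8 had 6.38 and 5.74 in LM and 0 in both CF libraries and in all 10 libraries of the other tissues, and its edgeR adjusted p of 0.0564 missed the threshold. Lhx9, a LIM homeobox gene of distal limb mesenchyme, had 11.2 and 19.1 against 4.41 and 5.24 (adjusted p = 0.0371, edgeR 0.0214). Meox2, of limb muscle precursors, was called on few interactions, 3.19 and 4.78 against 0 and 0, and not by edgeR (0.131).

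The remaining leading genes of LM are mostly not known as limb genes. Arhgap5, a GTPase-activating protein gene, had 16.0 and 13.4 in LM and 1.103 and 0 in CF (3.43 ± 0.53, adjusted p = 0.00147, edgeR 0.000383). Robo2, a Slit receptor of axon guidance, had 14.4 and 15.3 against 0 and 2.09 (adjusted p = 0.00869, edgeR 0.00157). Acvr2a, a receptor for activins, had 9.57 and 12.4 against 0 and 1.05, and Tmtc2, a glycosyltransferase of the endoplasmic reticulum, 12.8 and 14.4 against 2.21 and 0. Nmd3 (ribosome export), Nudt5 (nucleotide hydrolysis), Tmem18 (a membrane protein) and the zinc transporter Slc30a7 with its neighbour Extl2, which share a TSS bin, had between 4.78 and 10.5 in LM and at most 1.05 in CF. B430218F22Rik, which shares all its contacts with the mitochondrial ribosome gene Mrps30, had 11.2 and 4.78 against 0 and 0. Among signals, Rspo3, a secreted enhancer of Wnt signalling, was the 1 gene of its list higher in LM, with 17.5 and 16.3 against 4.41 and 5.24 (1.62 ± 0.40, adjusted p = 0.0165, edgeR 0.0152). Sox9, which directs cartilage formation in both tissues, had 19.1 and 31.6 against 14.3 and 10.5 (0.95 ± 0.29, adjusted p = 0.0406, edgeR 0.0359), and the median distance of its contacts was longer in LM, 595 and 570 kb against 370 and 365 kb. The farthest contacts lay at 800 and 960 kb in LM and at 890 and 880 kb in CF.

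Several well-known limb genes did not pass. Tbx5, which starts the forelimb, had 7.98 and 5.74 in LM and 4.41 and 2.09 in CF (adjusted p = 0.2), and Tbx4, its hindlimb counterpart, 3.19 and 3.83 against 2.21 and 0 (adjusted p = 0.151). Pitx1, the hindlimb and jaw homeobox gene, had 6.38 and 7.65 against 9.93 and 8.38 (adjusted p = 0.692). Prrx1 and Shox2, mesenchymal homeobox genes of limb and face, missed the limma threshold and passed that of edgeR: Prrx1 had 47.9 and 34.4 against 18.8 and 23.0 (0.161, edgeR 0.0321) and Shox2 25.5 and 33.5 against 8.83 and 18.9 (0.201, edgeR 0.032). In the pooled lists both had like numbers, 50 in LM and 51 in CF for Prrx1 and 46 and 48 for Shox2. Twist1, of limb and cranial mesenchyme, had 14.4 and 23.9 against 9.93 and 15.7, which overlapped (adjusted p = 0.524). Grem1, a BMP antagonist of the limb bud, had 0 in all 4 libraries, as had Ppp1r3b, a glycogen phosphatase subunit gene. Bves, a muscle membrane protein gene, had 1 interaction in CF replicate 2 alone, so these genes were not tested. The authors show Ppp1r3b as an example of LM-specific and Bves of CF-specific interactions, called with the H3K4me3 peaks of all tissues. In the pooled lists used here Grem1 had 2 interactions in LM and 0 in CF, Bves 3 and 1, and Ppp1r3b 0 in both.

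**Figure D2:**
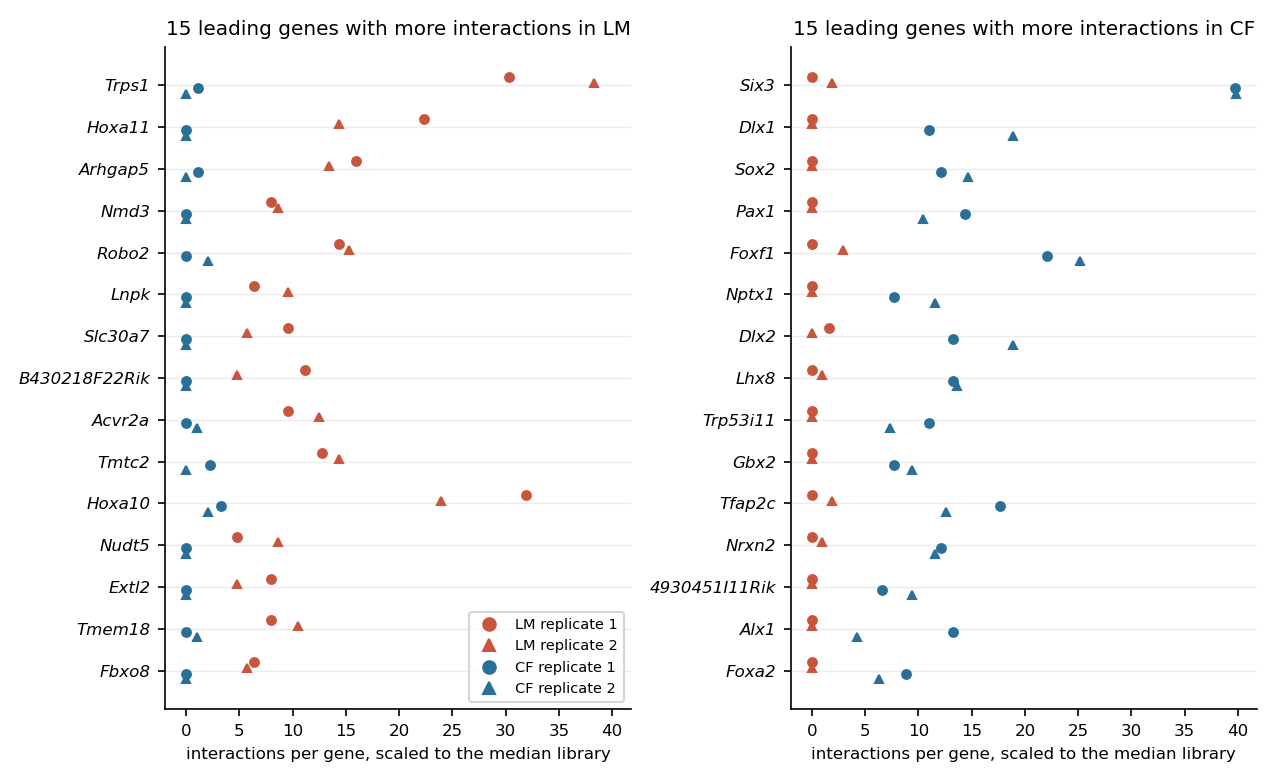
Scaled number of interactions (x axis) of the 15 leading genes higher in LM (left) and in CF (right), with 1 point per library. In every gene shown the 2 LM points and the 2 CF points do not overlap, and many of the lower values are 0. Genes were chosen for this difference, so the separation is a description.

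In CF the leading gene was Six3, a homeobox gene of the anterior neural plate and eye. Six3 had 0 and 1.91 in LM and 39.7 and 39.8 in CF (a difference of -4.58 ± 0.53, adjusted p = 0.000306, edgeR 1.06e-05). Its contacts in CF lay on the side of lower coordinates in both replicates, 36 and 38 pairs at medians of 430 and 440 kb, with the highest ratios at 780 kb (8.04 and 7.75) and 440 kb (8.09 and 7.04). The gene was higher still in forebrain, with a mean of 76.0, and midbrain, with 47.4. Sox2, a factor of neural progenitors, placodes and oral epithelium, had 0 in both LM libraries and 12.1 and 14.7 in CF (-3.84 ± 0.27, adjusted p = 8.09e-06, edgeR 0.000187), and its means in the 4 neural tissues were between 16.0 and 37.8. All contacts in the 2 CF replicates lay downstream, at medians of 460 and 455 kb, and the strongest at 830 kb (8.77 and 9.49), while the pooled CF list held 4 upstream and 26 downstream. The pair at 830 kb was also in both pooled lists, at 10.98 in LM and 10.92 in CF, so the pooled LM library did hold this contact.

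The promoters of these 2 genes are shown as the anchors whose calls were at or near 0 in the LM replicates, from the same RefSeq table with CG in capitals (Sox2, chr3:34649745-34650044, plus strand; Six3, chr17:85620584-85620883, plus strand). Sox2 holds 27 CG dinucleotides, a number that 15.3% of promoters reach, and Six3 14, which 36.3% reach.
Sox2 promoter: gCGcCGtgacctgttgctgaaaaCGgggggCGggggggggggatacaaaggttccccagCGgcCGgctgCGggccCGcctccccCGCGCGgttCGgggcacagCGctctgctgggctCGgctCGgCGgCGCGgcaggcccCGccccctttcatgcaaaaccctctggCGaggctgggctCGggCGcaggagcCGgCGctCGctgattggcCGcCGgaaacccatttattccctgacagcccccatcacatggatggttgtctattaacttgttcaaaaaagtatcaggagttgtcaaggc
Six3 promoter: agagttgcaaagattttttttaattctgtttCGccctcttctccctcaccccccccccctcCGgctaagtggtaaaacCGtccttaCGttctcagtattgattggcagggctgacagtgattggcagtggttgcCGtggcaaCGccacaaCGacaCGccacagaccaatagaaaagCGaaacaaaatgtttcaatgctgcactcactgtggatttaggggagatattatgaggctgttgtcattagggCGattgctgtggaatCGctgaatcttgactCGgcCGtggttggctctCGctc

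Dlx1, Dlx2, Lhx8 and Alx1 were the homeobox genes of facial mesenchyme among the leading genes, and Dlx6 and Alx4 were called with smaller differences. Dlx1 and Dlx2, neighbours that pattern the jaws and the ventral forebrain, had 0 and 0 against 11.03 and 18.9 (-3.95 ± 0.57, adjusted p = 0.000932, edgeR 0.000288) and 1.60 and 0 against 13.2 and 18.9 (-3.38 ± 0.66, adjusted p = 0.00637, edgeR 0.00056). Both contacted the TSS bin of Slc25a12 240 and 250 kb away in each CF replicate and in neither LM replicate. Dlx6, of the lower jaw and limb ectoderm, had 9.57 and 7.65 in LM and 27.6 and 40.8 in CF (-1.85 ± 0.41, adjusted p = 0.011, edgeR 0.000242), whereas its neighbour Dlx5 had 14.4 and 19.1 against 22.1 and 20.9 (adjusted p = 0.571). Lhx8, a LIM homeobox gene of jaw mesenchyme and basal forebrain, had 0 and 0.957 against 13.2 and 13.6 (-3.37 ± 0.58, adjusted p = 0.00275, edgeR 0.00103), with 8 CF pairs between 190 and 250 kb that were in no LM list. Alx1 and Alx4, of the frontonasal mesenchyme, had 0 and 0 against 13.2 and 4.19 (adjusted p = 0.000785, edgeR 0.0254) and 3.19 and 1.91 against 14.3 and 12.6 (adjusted p = 0.00751, edgeR 0.0067). Contacts of Alx1 were short, at medians of 130 and 145 kb, and the gene had 0 in all other tissues of the stage. The CF-restricted contacts of Six3, Sox2 and Dlx6 spanned 130 to 440, 410 to 820 and 400 to 1000 kb.

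Foxf1, Foxf2, Pax1, Pax3, Gsc and Tfap2c, genes of pharyngeal arches, head mesenchyme or ectoderm, were also called higher in CF. Foxf1, a forkhead factor of ventral and pharyngeal mesenchyme, had 0 and 2.87 against 22.1 and 25.1 (-3.64 ± 0.46, adjusted p = 0.000448, edgeR 6.03e-05), and Foxf2, of palate mesenchyme, 9.57 and 3.83 against 23.2 and 19.9 (adjusted p = 0.0161, edgeR 0.00378). The mean of Foxf1 was 22.1 in liver and between 10.0 and 10.4 in the neural tissues. Pax1, of the pharyngeal pouches and vertebral column, had 0 and 0 against 14.3 and 10.5 (-3.73 ± 0.40, adjusted p = 0.000213, edgeR 0.000187). One of its contacts in both CF replicates, at 680 kb with ratios of 5.05 and 5.77, was with the bin of Foxa2, a forkhead gene of foregut and floor plate that was itself a leading gene (0 and 0 against 8.83 and 6.28, adjusted p = 0.00163, edgeR 0.0031). The means of Foxa2 were between 7.25 and 8.97 in the neural tissues and 4.15 in liver. Pax3, of neural crest and muscle precursors, had 0 and 2.87 against 16.6 and 13.6 (adjusted p = 0.00345), and Gsc, of the jaw and middle ear, 3.19 and 4.78 against 17.7 and 20.9 (adjusted p = 0.0255, edgeR 0.0067). Tfap2c, an AP-2 factor of neural crest and ectoderm, had 0 and 1.91 against 17.7 and 12.6 (adjusted p = 0.00142, edgeR 0.000452). Among craniofacial genes that did not pass, Pax9, of teeth and palate, had 7.98 and 12.4 against 24.3 and 18.9 (adjusted p = 0.0748) and Barx1, of molar mesenchyme, 1.60 and 2.87 against 7.72 and 8.38 (adjusted p = 0.0506).

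Irx3, Irx5, Meis1, Meis2, Tbx2 and Tbx3, the members of the limb list that were called higher in CF, act in both tissues. Irx3 and Irx5, which lie 550 kb apart and act in early limb, face and brain, had 3.19 and 4.78 against 28.7 and 26.2 (-2.53 ± 0.24, adjusted p = 0.000156, edgeR 0.000121) and 6.38 and 7.65 against 37.5 and 46.1 (-2.41 ± 0.25, adjusted p = 0.000193, edgeR 6.4e-05). The contact between the Irx3 and Irx5 promoters themselves was called in all 4 libraries with like ratios, 14.4 and 12.96 in LM and 16.7 and 16.0 in CF. Irx5 alone had 20 pairs that were called in both CF replicates and in neither LM replicate, among them the one with the TSS bin of Fto at 960 kb (4.77 and 4.90). Of these 20 pairs, 9 were also in the pooled CF list and absent from the pooled LM list. Those lay at 220 to 870 kb, so the Fto pair was not among them. The pooled lists held 43 interactions of Irx5 in LM and 76 in CF. Meis1 and Meis2, which mark the proximal limb and are broad in the head, had 6.38 and 3.83 against 22.1 and 18.9 (-1.84 ± 0.26, adjusted p = 0.000932, edgeR 0.00261) and 7.98 and 12.4 against 41.9 and 38.8 (-1.91 ± 0.24, adjusted p = 0.000448, edgeR 0.00038). Tbx3, a T-box repressor of posterior limb and face, had the largest number of the named genes in CF, 81.6 and 91.1 against 41.5 and 43.1 in LM (-1.01 ± 0.21, adjusted p = 0.00853, edgeR 0.00103). Its relative Tbx2 had 25.5 and 24.9 against 43.0 and 41.9 (adjusted p = 0.0462, edgeR 0.0694).

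Of the signals shared by limb and face, Shh and Fgf8 had more interactions in CF. Shh, which is made by the polarizing zone of the limb bud and by facial and neural epithelium, had 3.19 and 1.91 in LM and 11.03 and 8.38 in CF (-1.60 ± 0.38, adjusted p = 0.0145, edgeR 0.0628). Every one of its contacts lay upstream, at medians of 835 and 835 kb in LM and 835 and 815 kb in CF. The far bin of the pair at 830 kb holds a TSS of Lmbr1. This pair was called in LM replicate 2 at 5.65 and in the CF replicates at 12.2 and 7.45. In the pooled lists it stood at 8.74 in LM and 17.3 in CF. An intron of Lmbr1 carries the limb enhancer of Shh. Which bin holds that enhancer was not examined, so these ratios cannot be read as those of the enhancer contact. The farthest contact of Shh was at 850 and 840 kb in the LM replicates and at 910 and 850 kb in the CF replicates. Fgf8, of the limb ridge and facial ectoderm, shares its contacts with Npm3 and had 6.38 and 2.87 against 16.6 and 11.5 (adjusted p = 0.0129, edgeR 0.037). The means of Fgf8 in the other tissues of the stage were between 12.4 and 15.1, so LM was the tissue that stood apart. For Shh the neural tissues had means between 11.5 and 15.9 and liver had 0.66.

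The remaining leading genes of CF were Nptx1, a neuronal pentraxin (0 and 0 against 7.72 and 11.5), Gbx2, of the midbrain and hindbrain boundary and pharyngeal arches (0 and 0 against 7.72 and 9.43), Nrxn2, a synaptic adhesion protein (0 and 0.957 against 12.1 and 11.5), Trp53i11 (0 and 0 against 11.03 and 7.33) and 4930451I11Rik (0 and 0 against 6.62 and 9.43). Each passed both tests, with limma adjusted p between 0.000193 and 0.000756. Of all 83 named genes that limma called, 67 were also called by edgeR and 40 were called in each of the 4 fits that left out 1 library; Hand2, Tshz1, Lhx9, Mef2a, Hoxa9, Tbx2, Lnpk, Tmem18, Dlx4 and Tfap2b were among those called in none of those 4 fits.

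**Figure D3:**
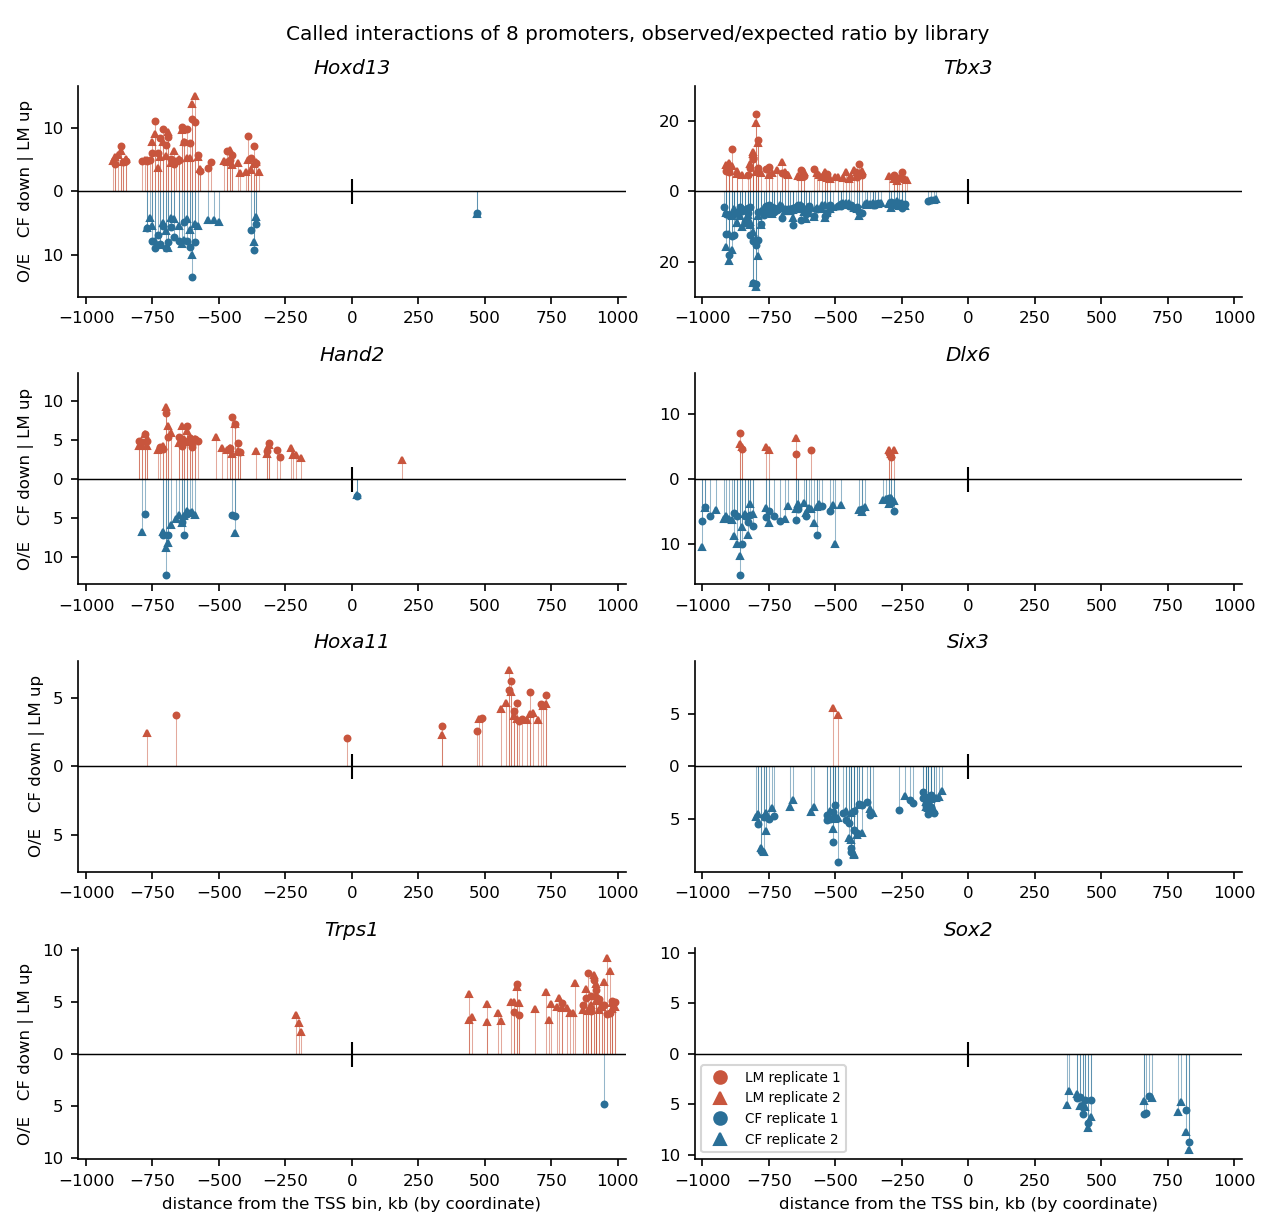
Called interactions of 8 promoters by distance from the TSS bin in kb (x axis, negative towards lower coordinates) and observed/expected ratio (y axis), with LM upwards and CF downwards, circles for replicate 1 and triangles for replicate 2. Hoxd13 and Hand2 have contacts in the same stretches in both tissues and more of them in LM, Hoxa11 has none in CF, Trps1 has 1 in CF, and Six3 has 2 and Sox2 none in LM. Gene panels were chosen after their values were seen.

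Set out by gene lists, limma called craniofacial transcription factors in the direction of CF alone, and limb factors in either direction. Of 42 craniofacial factors tested, 0 were higher in LM and 22 in CF, with a median difference of -1.47, and 8 of the 42 had a positive difference. With edgeR 1 was higher in LM (Prrx1) and 19 in CF. Of 31 limb factors, 5 were higher in LM (Sall1, Meox2, Hand2, Tshz1 and Lhx9) and 6 in CF (Irx3, Irx5, Meis1, Meis2, Tbx2 and Tbx3), with a median of 0.01. The edgeR split of the same 31 factors was 8 higher in LM (Shox2, Tbx15, Gli3 and Mecom added, Meox2 lost) and 5 in CF (Tbx2 lost). For all 4315 genes the median was -0.02 and 15.3% were called. Of 15 posterior Hox genes, 3 were higher in LM, 0 in CF and 14 had a positive difference, with a median of 0.76, where 2128 of the 4315 genes were positive. The list holds no HoxB gene, and Hoxb9 and Hoxb13 were called higher in CF (adjusted p = 0.000551 and 0.00997). The 3 called genes are neighbours with overlapping TSS bins. Of 14 anterior Hox genes tested, 5 were higher in CF (Hoxb3, Hoxb4, Hoxb5, Hoxc4 and Hoxd3) and 0 in LM, with a median of -0.66. Hoxb5 had 1.60 and 6.697 against 24.3 and 22.0, and Hoxb4 4.79 and 3.83 against 24.3 and 13.6. In the other tissues of the stage Hoxb4 had means between 14.3 and 24.9. Hoxb5 had means between 21.1 and 33.8 in forebrain, hindbrain, neural tube and liver and 7.00 in midbrain. LM had the lowest mean of all tissues for both genes. Of 38 signals and receptors, 1 was higher in LM and 2 in CF (median 0.34), or 4 and 1 with edgeR, and of 9 housekeeping genes 0 were called (median 0.31).

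Markers of other cell types moved with some of these results. Of 10 neural progenitor and placode genes tested, 9 were higher in CF (Sox2, Pax6, Lhx5, Pou3f3, Zic4, Sox1, Zic1 and Otx1 among them), with a median of -2.20, and the summed scaled number of the 17-gene list was 1.60 and 7.65 in LM and 72.8 and 61.8 in CF. Emx1, Fabp7 and Fezf2 had 0 in all 4 libraries. Of 10 neuron genes tested, 3 were higher in CF (Insm1, Neurog1 and Neurog2) and 0 had a positive difference, with a median of -1.36. The summed numbers of the list were 119.6 and 81.3 in LM and 150.1 and 134.1 in CF, while Tubb3, Elavl4, Stmn2 and Snap25 had 0 throughout. The part of neural cells in the CF values of Six3, Sox2, Dlx1, Dlx2 and Lhx8, which forebrain also showed (means of 76.0, 37.8, 19.3, 20.8 and 7.57), was not tested. Alx1, Gsc and Alx4 had forebrain means of 0, 0 and 2.32, below both CF replicates. Defining markers of epithelium (Epcam, Cdh1, Krt5, Krt14, Trp63), neural crest glia (Sox10), endothelium (Pecam1, Kdr) and blood (Hba-a1, Klf1) had 0 interactions in all 4 libraries, so that these cell types could be read from few genes. Of the 3 endothelium genes tested Erg was called higher in LM by limma, with 4.79 and 3.83 against 0 and 0 (adjusted p = 0.00117, edgeR 0.123), and of the 3 epithelium genes Perp, with 3.19 and 1.91 against 0 and 1.05 (adjusted p = 0.0395, edgeR 0.562). The summed numbers of the endothelium list were 22.3 and 18.2 in LM and 11.03 and 14.7 in CF, and those of the epithelium list 6.38 and 4.78 against 5.52 and 3.14. The part of these cells in the LM values was not tested. Of the 4 muscle genes tested Mef2a was higher in LM and Lbx1 in CF. Of 10 cartilage and bone genes limma called Sox9 alone, and edgeR also called Runx2, the bone regulator, higher in CF (14.4 and 15.3 against 28.7 and 45.0, limma adjusted p = 0.195, edgeR 0.0163).

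**Figure D4:**
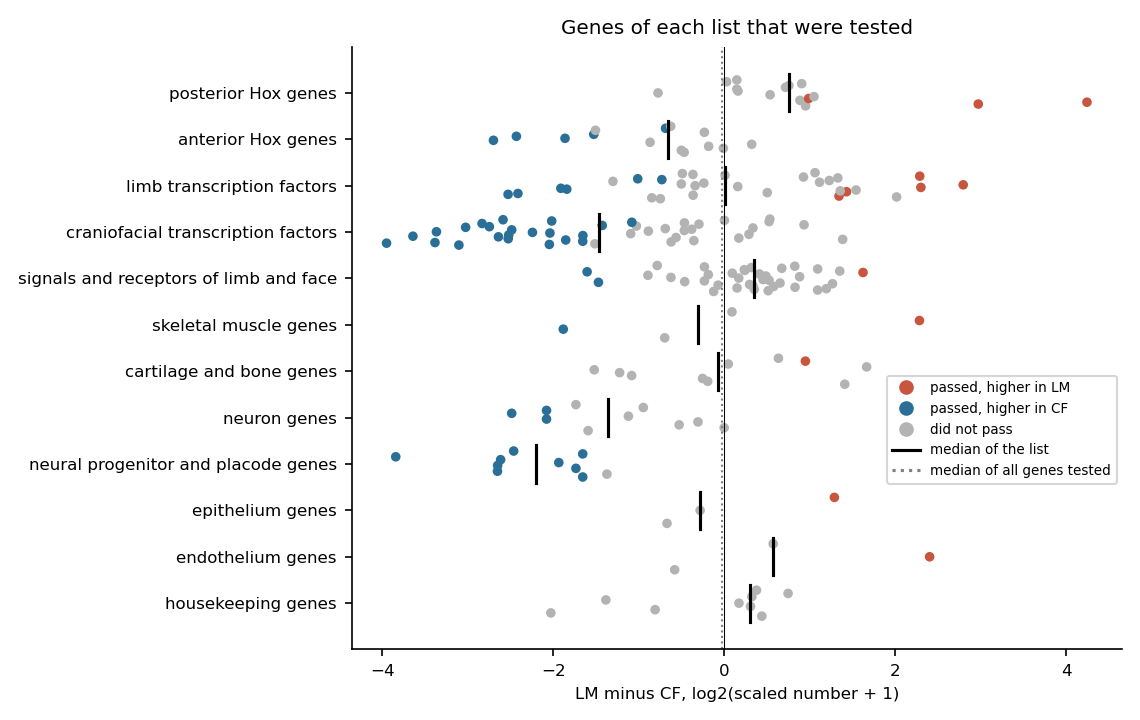
Difference between LM and CF on the log2(scaled number + 1) scale (x axis) of every gene tested in 12 gene lists, 1 point per gene, coloured where limma called it; black bars are list medians and the dotted line is the median of all genes (-0.02). Craniofacial factors (median -1.47) and neural progenitor and placode genes (-2.20) lie to the left and posterior Hox genes (0.76) to the right.

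The median distance of interactions was longer in LM than in CF. It was 270 kb in both LM replicates and 230 and 240 kb in the CF replicates, and 21.9% and 21.3% of LM interactions spanned over 500 kb against 16.3% and 17.2% in CF. The share with a coding TSS in at least 1 end was also higher in LM, 85.2% and 86.9% against 78.3% and 78.6%, while the share with a TSS bin at both ends was 15.2% and 16.2% in LM and 16.9% and 16.9% in CF. None of these groups overlapped, but with 2 libraries against 2 the exact permutation test, 2-sided, cannot give less than p = 0.333, and it gave that value for each. The difference in the share with a TSS bin at both ends, -1.17 percentage points, was between -1.66 and -0.689 with 1 library left out, and with TSSs of all annotated genes the groups overlapped (25.9% and 26.9% against 27.1% and 26.9%, exact p = 0.667). The pooled lists differed less, with medians of 290 kb in LM and 270 kb in CF, a TSS in at least 1 end at 79.9% and 75.8%, and at both ends at 16.1% and 16.4%. Replicates resembled each other more than the other tissue: the libraries of LM shared 35.7% and those of CF 35.9% of the pairs found in either, and libraries of different tissues 26.3% to 28.6% (a difference of the means of 8.38 percentage points, exact permutation p = 0.333).

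CTCF binding at the ends of interactions was compared with the CTCF peaks of each tissue, 49512 in LM and 50804 in CF, of which 83.4% and 80.7% of those on autosomes were found in the other tissue too. A 19-base matrix learned from the strongest peaks found a CTCF site in 88.0% and 87.6% of the autosomal peaks, and a bin was called bound where it held such a peak. Both ends were bound in 29.8% and 28.3% of LM interactions and 33.0% and 33.2% of CF interactions, which did not overlap (exact permutation p = 0.333), while at least 1 end was bound in 84.1% and 82.8% against 83.5% and 83.9%, which did. In the pooled lists the shares with both ends bound were 22.7% and 24.1%.

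Of the interactions found in all 3 lists of 1 tissue and in none of the other, 1116 were restricted to LM and 1724 to CF. A pair restricted to LM had to be called in LM replicate 1, the smallest list at 12461 interactions, so these counts are not on equal terms. In comparison, 4368 pairs were called in all 4 replicate lists and 24305 in both pooled lists, a looser rule. LM-restricted pairs were long, with a median of 300 kb, and 86.9% had a TSS bin; CF-restricted pairs were shorter, at 200 kb, and 67.8% had one. Both ends held a CTCF site in at least 1 tissue in 25.7% of the LM-restricted pairs (95% Clopper-Pearson interval 23.2% to 28.4%), 36.1% of the CF-restricted pairs (33.8% to 38.4%), 46.6% of the pairs in all 4 replicate lists and 33.1% of the pairs in both pooled lists. These intervals cover counting error only, neighbouring bin pairs are not independent, and the pairs were chosen by the calls, so the shares are a description. Where each end held a single site, the sites faced each other in 55.7% of 115 LM-restricted pairs, 53.2% of 250 CF-restricted pairs and 56.4% of 2984 shared pairs (55.0% of 3089 with the CF sites).

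Strength was compared at the 4368 bin pairs called in all 4 libraries, with limma on the log2 of the observed/expected ratio. Pairs at Tbx3, Msx1, Dlx5 and Dlx6, Emx2 and Isl1 were stronger in CF, and pairs at Ccnd2, Hes1, Plpp3, Cyp26b1, Nrp2, Vegfa and Igf2 in LM. In all, 21 pairs (0.481%) had a higher ratio in LM and 14 (0.321%) in CF. Those higher in CF were long, with a median of 645 kb and 12 of 14 over 300 kb, and those higher in LM short, with a median of 130 kb and 14 of 21 at 150 kb or less; all pairs tested had a median of 250 kb. The ratios of all pairs moved with distance in the same direction, the median LM minus CF difference being 0.16 on the log2 scale under 100 kb, 0.10 from 100 to 190 kb, 0.06 from 200 to 390 kb and -0.004 from 400 kb on. With each library centred on its median the split was 15 higher in LM and 20 in CF, and centred within the 4 distance classes 6 and 18, with 19 of the 35 pairs in common. No pair of 160 kb or less passed the distance-centred fit, Tbx2 at 120 kb and the Igf2 pairs included. Without CF replicate 1 or CF replicate 2 limma called 0 pairs, with 504 and 486 at an unadjusted p under 0.05, and without either LM replicate 18.

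The smallest adjusted p was at Tbx3. A bin 810 kb from its TSS bin, in the stretch next to Med13l, had ratios of 9.38 and 11.3 in LM and 26.1 and 26.1 in CF, from 13, 17, 61 and 61 reads, and 14.2 and 30.0 in the pooled lists. The difference was -1.34 ± 0.26 (adjusted p = 0.00134, and 0.000599 centred by distance). Both CF libraries were more than 10 units above both LM libraries, and the neighbouring pair at 820 kb showed the same order (5.71 and 6.32 against 15.6 and 16.5). In Dlx6, the pair at 860 kb with Dync1i1, a dynein chain gene, had 7.00 and 5.35 against 14.7 and 11.8 (adjusted p = 0.0466), and the pair 870 kb from the same Dync1i1 bin, between Dlx6 and Dlx5, 5.35 and 4.51 against 11.3 and 12.9 (0.016). Msx1, a homeobox gene of jaw and limb mesenchyme, contacted a bin beside Stx18 at 240 kb with 3.37 and 3.26 against 7.74 and 7.78 (-1.23 ± 0.30, adjusted p = 0.016). Emx2, a homeobox gene of forebrain, urogenital tract and girdle, had 11.9 and 8.34 against 19.2 and 21.8 at 680 kb (0.0282). The contacts of Tbx2 differed by direction of change: at 350 kb, 3.65 and 4.06 in LM against 10.6 and 7.10 in CF (0.0246), and at 120 kb, 4.85 and 4.44 against 2.31 and 2.44 (0.016, and 0.09 centred by distance). With replicate number added to the limma fit, Emx2 (0.111), Dlx6 at 860 kb (0.0764) and Tbx2 at 350 kb (0.0524) missed the threshold. In limma without the trend these 3 pairs missed it too (0.0925, 0.0719 and 0.0649). The Tbx3 pairs at 810 and 820 kb, the pair between Dlx6 and Dlx5 and that of Msx1 passed in both fits.

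Of the pairs stronger in LM, Cyp26b1, the retinoic acid hydroxylase of the distal limb, contacted the bin of Dysf, a muscle membrane repair gene, 480 kb away with 16.9 and 16.8 in LM and 7.54 and 7.27 in CF (1.18 ± 0.30, adjusted p = 0.0187, and 0.0137 centred by distance). Hes1, a Notch target, contacted a bin 330 kb away towards Opa1 with 23.6 and 19.7 against 9.25 and 11.3 (1.08 ± 0.27, adjusted p = 0.019). Plpp3, a lipid phosphatase, had 17.5 and 15.1 against 5.25 and 7.98 at 770 kb (1.33 ± 0.30, adjusted p = 0.0135), and Nrp2, a semaphorin co-receptor, 16.8 and 16.3 against 9.54 and 6.63 at 780 kb (0.0448). These 4 pairs kept an adjusted p under 0.05 when centred by distance. With replicate number added to the limma fit Plpp3 alone kept one (0.0451), against 0.0559 at Cyp26b1, 0.103 at Hes1 and 0.109 at Nrp2. In limma without the trend Hes1 (0.0788) and Nrp2 (0.0925) missed the threshold. Ccnd2, a G1 cyclin, had 3.85 and 5.06 against 2.12 and 2.27 at 100 kb (0.0064, and 0.0591 centred by distance), and Vegfa, the vascular growth factor, 4.40 and 4.75 against 2.43 and 2.48 at 160 kb (0.0221, and 0.129).

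**Figure D5:**
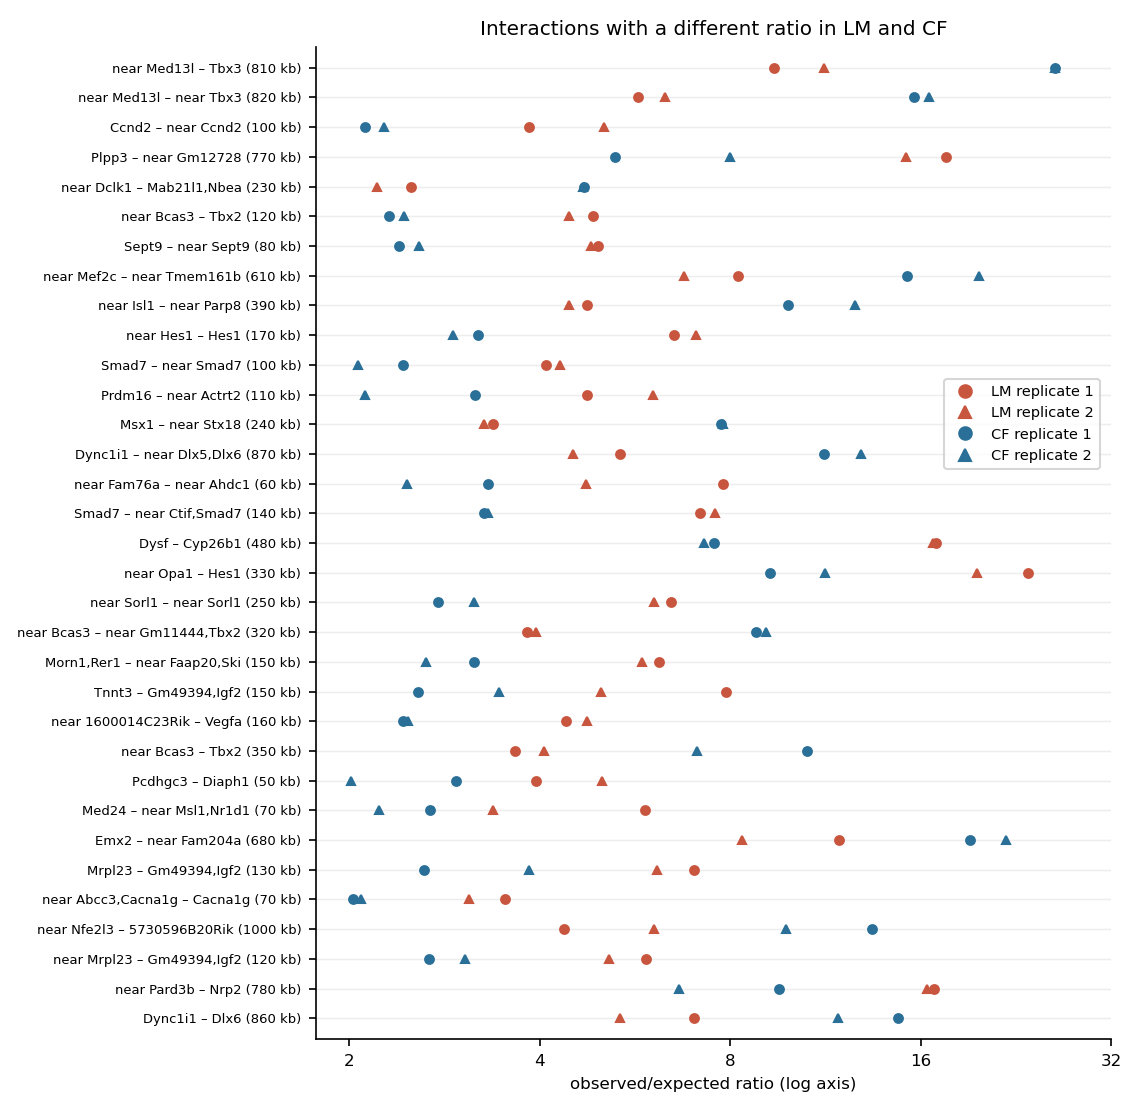
Observed/expected ratio on a log axis (x axis) in each library of interactions whose ratio differed between LM and CF, in order of adjusted p, with circles for replicate 1 and triangles for replicate 2. Labels give the genes with a TSS in each bin, or the nearest gene after "near", and the distance between the bins. The 2 LM points and the 2 CF points do not overlap in any row, by the choice of these pairs, and 2 of the 35 are not shown.

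Some of these pairs joined bins that CTCF bound in both tissues. Of the pairs higher in LM 8 of 21 and of those higher in CF 5 of 14 had CTCF sites at both ends in both tissues, against 39.1% of all pairs tested. The sites at the ends of 4 pairs are shown because both tissues bound them while the ratio of the pair differed, with the mm10 position and the positions of the matrix that carry over 1 bit in capitals. At Tbx3 both sites were on the plus strand, that near Med13l with a peak of 12.6-fold enrichment in LM and 19.6 in CF and that at the promoter with 11.5 and 14.02. The Med13l side held another plus-strand site in the same bin, whose peak had an enrichment of 26.2 in LM. No CF peak centred in that bin had this site as its best one, and CF peaks centred outside the bin were not searched.
Tbx3 pair, Med13l side, chr5:118877553-118877571, plus strand: gctACtgcAGGgGGCactg
Tbx3 pair, promoter side, chr5:119686393-119686411, plus strand: aggCCactCGGgGCCggcg

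At the other 3 pairs shown, all higher in LM, the sites faced each other, plus strand at the lower and minus strand at the higher coordinate. This arrangement did not go with LM in general: at the Mef2c and Tmem161b pair, higher in CF, the sites also faced each other, and at the Nrp2 pair, higher in LM, all were on the minus strand. The peak enrichments were 18.1 and 6.77 in LM and 20.6 and 8.58 in CF at Plpp3, 22.1 and 32.3 in LM and 23.2 and 24.4 in CF at Hes1, and 9.42 and 27.97 in LM and 6.73 and 36.4 in CF at Vegfa. In the promoter bins of Hes1 and Vegfa a further minus-strand site was the best site of an LM peak, with enrichments of 3.89 and 4.71. No CF peak centred in those bins had it as its best site. The enrichments come from 1 pooled peak list per tissue and carry no error.
Plpp3 pair, promoter side, chr4:105152090-105152108, plus strand: gtgTCacaAGGtGGCagca
Plpp3 pair, far side, chr4:105925169-105925187, minus strand: ctaCCacaAGAgGGAagac
Hes1 pair, Opa1 side, chr16:29734482-29734500, plus strand: ggaCCcatAGGgGGCacta
Hes1 pair, promoter side, chr16:30067166-30067184, minus strand: ctgCCgggAGGgGGCgccg
Vegfa pair, far side, chr17:45878594-45878612, plus strand: tggCCagtAGAgGGCgatg
Vegfa pair, promoter side, chr17:46032886-46032904, minus strand: tagTCactAGGgGGCgctc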

How the data were processed

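H3K4me3 PLAC-seq and CTCF ChIP-seq of E12.5 mouse tissues were analysed from the deposited files. The authors aligned reads to mm10 and called interactions with MAPS in 10-kb bins over 20 kb to 1 Mb on autosomes, per replicate and after pooling and downsampling. For each pair the deposited lists hold the read count, the expected signal of the MAPS model and the FDR as a p-value, and they are cut at an observed/expected ratio of 2 and an FDR of 1%. CTCF peaks, called by the authors with MACS2 on pooled libraries and kept where both libraries had them, give a fold enrichment over input (a ratio) and a summit offset in other units. Pairs that were not called have no value.

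Genes are protein-coding genes of GENCODE M21. Numbers of interactions were scaled to the median total of 14 libraries and tested as log2(scaled number + 1) by limma with trend (LM minus CF, 7 tissues in the fit, genes with a mean of at least 1 in the 4 libraries, Benjamini-Hochberg adjusted p under 0.05). Ratios were tested by limma on the 4 libraries. Single values per library were tested by exact permutation. The edgeR fit over 14 libraries was added after seeing the data, as were the ratios centred within distance classes and the leave-one-out values per library. A 19-base CTCF matrix was built from the 50 bases on each side of the summits of 5000 peaks in both tissues. Whole peaks were then scanned with it, and the best site of a peak was kept at a p of 0.0001 per position. Tests were tried on simulated data first. Nothing states that replicates are separate litters, so p-values measure the spread between these libraries.

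Named are up to 15 genes per direction with the largest called difference, non-overlapping replicates and pooled numbers in the same direction, members of 15 gene lists that passed, and a fixed set of limb and face genes. For pairs, 35 were called and those described were picked after their values were seen. Members and lists were chosen with earlier results of these data known. Not used here were CTCF files of other tissues or of uncertain label, signal tracks and H3K4me3 peaks. A few called genes and pairs are counted but not reported here by name.

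Software was Python 3.11.15 with pandas 2.3.3 and scipy 1.17.1, and R 4.3.3 with limma 3.58.1, edgeR 4.0.16 and DESeq2 1.42.0.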

Additional observations from a re-analysis of the deposited data

How the results depend on the processing

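The 661 genes called by limma became 0 with the 4 LM and CF libraries alone, 381 with a mean of at least 2, 190 with edgeR on the 4 libraries (101 higher in LM and 89 in CF), 263 with edgeR on 14 libraries (117 and 146), an alternative added after seeing the data, and 42 with DESeq2 (29 and 13). The balance of 260 and 401 towards CF was thus turned by both count tests on the 4 libraries. Leaving out 1 library gave 224 to 574 genes and 118 of the 661 were called in all 4 such fits. TMM scaling, a pseudocount of 0.5, no filter, a stricter FDR, other TSS bins and no scaling stayed within 1.5 times. No named gene changed direction in the refits that gave it a value, though some had none under DESeq2. In the pooled lists Shox2, Prrx1 and Tbx5, which limma did not call, leaned to CF instead of LM, and Dlx4 had equal numbers.

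With the replicate block the fit called 638 genes (607 of them the same) and 17 pairs. Replicate deviations of LM and CF did not correlate (r = -0.02 over 4315 genes and 0.004 over 4368 pairs), so the shared numbers do not pair the libraries. The 35 pairs became 11 without the trend and 0 to 18 with 1 library left out.

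The difference in total number, -1879, was 2278 without LM replicate 1, the smallest library, and the range with 1 library left out was -6036 to 2278. The other library values kept their direction throughout. In the pooled lists the differences were smaller, with medians of 290 kb in LM and 270 kb in CF, TSS bins at both ends in 16.1% and 16.4% and CTCF at both ends in 22.7% and 24.1%. The planned comparison with a second CTCF peak list was not run. With 2 libraries per tissue the permutation tests cannot pass 0.05, and numbers near 0 in LM replicate 1, at 12461 interactions in all, limit what can be read from single genes.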

Other observations

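The 5 other tissues of the stage place the called genes. The 260 genes higher in LM had a median scaled number of 5.34 in LM and 0.52 in CF, and medians of 0.62 in forebrain, 0.83 in midbrain, 1.21 in hindbrain, 1.31 in neural tube and 0 in liver. The 401 genes higher in CF had medians of 0 in LM and 4.797 in CF, and 4.01 in forebrain, 4.25 in midbrain, 3.94 in hindbrain, 3.65 in neural tube and 2.41 in liver. All 5 other tissues were under 1 for 73 of the 260 genes and for 19 of the 401, against 340 of the 4315 genes tested. These values differ in the genes that both tests called. For the 85 genes higher in LM in both limma and edgeR, the medians were 4.01, 3.42, 3.68, 4.71 and 0.662 in the same order of tissues, against 16.4 in LM and 3.72 in CF, and 5 of the 85 had all 5 other tissues under 1 (5.88%, against 7.88% of all genes tested). For the 142 higher in CF in both tests that number was 2. Genes are not independent replicates and were chosen by their LM and CF values, so these medians are a description.

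A few further genes were picked after their values were seen. Of the posterior genes of the HoxB cluster, which were in no list, Hoxb9 had 0 and 0.957 in LM and 8.83 and 11.5 in CF (a difference of -2.99, limma adjusted p = 0.000551, edgeR 0.00685). Hoxb13 had 0 and 0 against 6.62 and 3.14 (-2.49, 0.00997 and 0.0306). Gli3, a limb list member which carries the response to Shh in limb and face, had 38.3 and 35.4 against 6.62 and 10.5, with a limma adjusted p of 0.0531 and an edgeR adjusted p of 0.000855. Snai2, a factor of mesenchyme and neural crest, had 54.2 and 31.6 against 9.93 and 10.5 (1.92, 0.0371 and 0.000855).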
